A study of Homo sapiens with 48 samples.

Results

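The 34 genes described here encode the cholesterol and fatty acid synthesis machinery: the SREBP transcription factors and their sensors, the enzymes of the mevalonate, sterol and fatty acid pathways, and targets of the LXR receptors. They were chosen by symbol from a list of the pathway, and each symbol named 1 of the 33892 rows of the count matrix. RNA was sequenced from 8 established human cancer cell lines after 24 h with DMSO, the solvent, or with carfilzomib, a drug that blocks the proteasome for good. RKO and DLD-1 came from colon cancer, H-23 and H-1299 from lung cancer, PANC-1 and CAPAN-2 from pancreatic cancer, and H-929 and RPMI from multiple myeloma, a plasma cell tumour. Each of the 16 groups of line and treatment held 3 biological replicates, 48 libraries in all, and no other agent or genetic change is named for any group. In each line the drug was dosed at its IC50 for proteasome activity. The concentrations are not given in the sources used here, so lines may differ in dose. The study set treated against untreated cells to ask how cancer cells respond when the proteasome is blocked.

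SREBF1 and SREBF2 encode SREBPs, transcription factors that are made as precursors in the membrane of the endoplasmic reticulum. When sterols are scarce, the escort protein SCAP carries the precursors to the Golgi, where proteases free the part that enters the nucleus and switches on sterol and fatty acid genes. When sterols are plentiful, INSIG1 holds SCAP back. SREBP-2 acts mainly on cholesterol genes and SREBP-1 mainly on fatty acid genes, while LXR receptors sense oxidised sterols and induce the efflux pumps ABCA1 and ABCG1 and the ubiquitin ligase MYLIP, which lowers sterol uptake. Nuclear SREBPs and INSIG1 are proteins that the proteasome degrades, and RNA, not protein, was measured here.

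Promoter sequence is shown for 4 members that stand for the arms of the pathway and for its control: SREBF2, INSIG1, HMGCS1 and SCD. Each run is the 250 bases before the transcription start from RefSeq (build GRCh38.p14), 5′ to 3′ on the gene's strand, with capitals marking matches to motifs bound by factors of these promoters. The motifs were searched on both strands: TCACNCCAC (sterol regulatory element), CACGTG (E-box), CCAAT (NF-Y box), GGGCGG (GC box) and the LXR DR4 element, AGGTCA repeated after 4 bases. Neighbouring GC boxes can overlap. SREBF2 lies on chromosome 22 from 41832855 to 41833104 (plus strand), INSIG1 on chromosome 7 from 155297628 to 155297877 (plus), HMGCS1 on chromosome 5 from 43313413 to 43313662 (minus) and SCD on chromosome 10 from 100346983 to 100347232 (plus).
SREBF2: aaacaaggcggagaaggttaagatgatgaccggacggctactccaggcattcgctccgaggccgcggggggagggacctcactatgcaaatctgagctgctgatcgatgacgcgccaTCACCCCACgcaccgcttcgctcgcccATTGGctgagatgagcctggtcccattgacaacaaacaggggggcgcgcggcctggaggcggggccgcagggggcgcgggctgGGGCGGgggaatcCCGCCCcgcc
INSIG1: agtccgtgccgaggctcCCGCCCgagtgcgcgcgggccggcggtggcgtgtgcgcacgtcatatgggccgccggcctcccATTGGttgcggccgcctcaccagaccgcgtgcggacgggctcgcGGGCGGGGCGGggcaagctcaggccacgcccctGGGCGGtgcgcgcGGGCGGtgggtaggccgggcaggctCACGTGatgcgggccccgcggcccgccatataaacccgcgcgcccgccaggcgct
HMGCS1: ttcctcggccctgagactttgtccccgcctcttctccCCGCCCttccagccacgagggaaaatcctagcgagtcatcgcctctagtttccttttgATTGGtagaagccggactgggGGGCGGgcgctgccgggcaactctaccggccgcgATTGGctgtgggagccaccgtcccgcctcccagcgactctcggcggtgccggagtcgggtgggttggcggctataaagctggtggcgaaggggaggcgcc
SCD: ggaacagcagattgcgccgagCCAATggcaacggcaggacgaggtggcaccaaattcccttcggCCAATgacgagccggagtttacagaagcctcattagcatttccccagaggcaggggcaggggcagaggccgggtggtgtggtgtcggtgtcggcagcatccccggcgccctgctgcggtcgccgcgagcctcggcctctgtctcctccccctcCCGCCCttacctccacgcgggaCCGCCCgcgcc
Of the 34 members, 29 were in the RefSeq promoter table. Over windows of 300 bases (250 before and 50 after a start), a sterol regulatory element of these letters was found for 1 of the 29, SREBF2, and in 1.13% of all 35116 promoter windows. An NF-Y box was found for 21 of 29 (72.4%; 34.6% of all windows), a GC box for 28 (96.6%; 45%), an E-box for 5 (17.2%; 7.26%) and the LXR element for 0 (0.0199% of all windows). A member counts when any of its windows holds the motif, and the 29 members have 40 windows, so the shares of members and of windows are not on 1 footing. A match is a match of letters, not a binding site.

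Library totals ran from 9.12 to 64.4 M (mega) counts, and no replicate pair agreed within counting noise. The plasma cell marker JCHAIN set the myeloma lines apart. It averaged 5267 CPM (counts scaled to a common library total) in H-929 and 4339.8 in RPMI after DMSO and at most 0.316 in the other lines. Other plasma cell markers are not described here. The tissue markers of the carcinoma lines were uneven. KRT20 was at 0 in every DMSO library, and CDX2 averaged 20.9 CPM in RKO and 115 in DLD-1. Among epithelial markers after DMSO, EPCAM averaged 0.188 CPM in H-1299 and 4.29 in H-23, and CDH1 0 and 102. KRT8 and KRT18 were high in both, at 287 and 727 CPM in H-1299 and 1681 and 2160 in H-23. The lung markers SFTPB and NAPSA stood at 1.60 and 2.38 in H-23 and at 0.286 and 0.921 in H-1299. NAPSA did not set the lung lines apart, at 2.26 CPM in DLD-1 and 41.8 in H-929. EPCAM, an epithelial marker, also stood at 118 CPM in the myeloma line RPMI, and its part in the results was not tested. After carfilzomib the 10 most abundant genes took 11.8 to 13.2% of the counts in H-929, against 6.45 to 6.78% after DMSO, and 11.5 to 11.9% against 7.16 to 7.81% in RPMI. The treated H-929 libraries were also the shallowest, at 9.12 to 9.93 M counts. The part of these shifts in the values below was not tested. DMSO replicate 1 of RPMI stood above the other 2 for several lipid genes, and values without it are given where they matter. FDFT1, LSS and ACACA each share an identifier with a further row, so their reads were divided between rows. The FDFT1 row held 17.3% of its identifier's counts, the ACACA row 46.7% and the LSS row 94.5%, and results for these 3 genes are uncertain.

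The response of the pathway was a broad fall in CAPAN-2, RPMI and H-929. Fewer members were called in PANC-1, mostly lower, the picture was mixed in H-1299 and H-23, and the colon lines had few changes. In each line the 6 libraries were compared with edgeR's quasi-likelihood test, and a gene was called at a Benjamini-Hochberg adjusted p under 0.05 over all genes tested. In CAPAN-2, 29 of 34 members fell (85.3%), where 26.7% of all tested genes were called lower. The count called higher was 0 in edgeR (25.7% of all genes), 0 at an unadjusted p under 0.05 and 0 in DESeq2. In RPMI, 24 members fell (70.6%; all genes 32.2%) and 4 rose (all genes 31.3%). In H-929, 20 of the 33 members tested fell (60.6%; all genes 26.2%) and 6 rose (all genes 26.4%); FDFT1 had too few counts there to be tested. In H-1299, 17 members fell (50%; all genes 31.3%) and 9 rose (26.5%; all genes 29.8%). In PANC-1, 13 fell (all genes 18.2%) and 2 rose (all genes 20.5%), and in H-23, 9 fell (all genes 16.2%) and 5 rose (all genes 17.7%). The colon lines had the fewest calls. In DLD-1, 3 members fell (all genes 12.1%) and 4 rose (all genes 10.9%), and in RKO, 2 fell (all genes 5.28%) and 2 rose (all genes 3.62%). The shares of members called in DLD-1 and RKO lay near those of all genes. Scaling by library totals in place of TMM turned the split of all calls there, from 525 higher and 767 lower to 807 and 519 in RKO, and from 1812 and 2005 to 2311 and 1522 in DLD-1. It also turned the split in H-23, from 3192 and 2929 to 2770 and 3401, and in RPMI, from 4693 and 4821 to 4786 and 4720. In H-1299 it moved the median of all genes by -0.11. There 23 members were then lower in place of 17, and of all 16500 genes 6252 in place of 5171.

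The shift was also largest in CAPAN-2, RPMI and H-929. The median log2 fold change of the members was -0.73 in CAPAN-2, -0.58 in RPMI and -0.50 in H-929, where the medians of all genes were -0.021, 0.0069 and 0.029. It was -0.15 in H-1299, -0.086 in PANC-1, -0.031 in DLD-1, -0.020 in RKO and 0.00 in H-23. The treatments did not overlap for 30 members in CAPAN-2 (all genes 59.3%), 28 in RPMI (68.2%), 28 in H-929 (59.4%), 26 in H-1299 (66.2%), 16 in PANC-1 (49.6%), 16 in H-23 (45.7%), 15 in RKO (28.2%) and 12 in DLD-1 (39.9%). In 5 or more of the 8 lines, 10 members were called lower, a count of lines reached by 9.94% of the genes tested in every line. They were FADS2 in 7 lines, SCD and FADS1 in 6, and SREBF1, SCAP, PMVK, LSS, TM7SF2, EBP and FASN in 5. No member was called higher in 5 or more lines (9.25% of all genes), and HMGCS1 and LPIN1 came nearest, with 4. Several calls in the colon lines were lost with 1 library fewer. Of the 6 fits that each left out 1 library, the call was lost in 5 for IDI1 in RKO. In DLD-1 it was lost in 4 for INSIG1, 4 for HMGCS1, 5 for MSMO1 and 3 for SCD. The estimates of these genes kept their sign, at -0.32 to -0.26 for IDI1 and 0.13 to 0.17 for INSIG1. Without DMSO replicate 3 of DLD-1, on the other hand, 7 members were called lower there. Without DMSO replicates 1 or 2 or carfilzomib replicates 2 or 3 of DLD-1, 1 member was called higher.

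**Figure D1:**
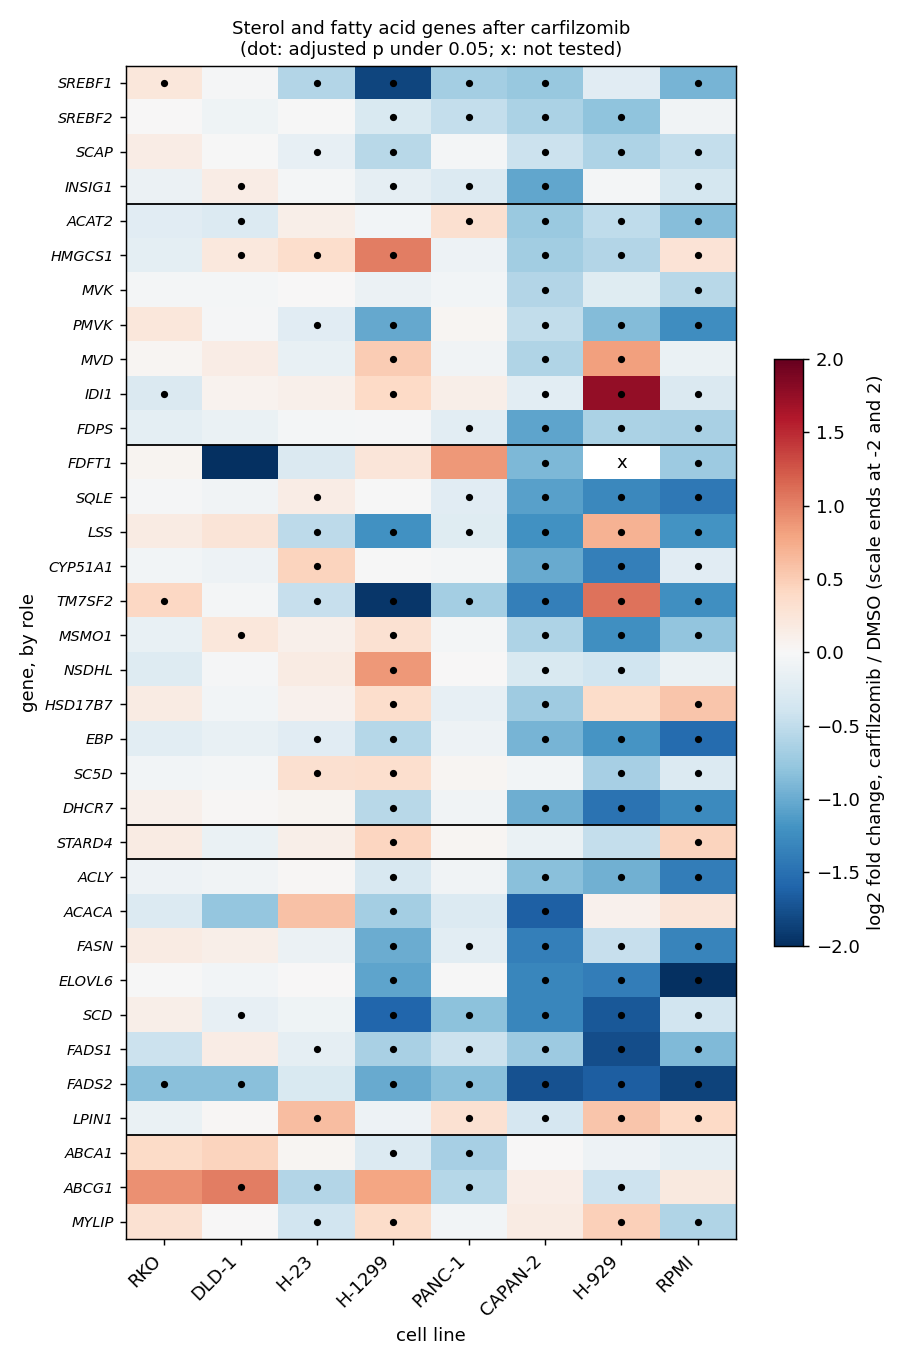
Log2 fold change (carfilzomib over DMSO) of each member (rows, grouped by role) in each line (columns), with dots where the call passed an adjusted p under 0.05 in edgeR. The columns of CAPAN-2, RPMI and H-929 are mostly blue, with 29, 24 and 20 members called lower, while H-929 also holds the rises of IDI1 and TM7SF2.

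**Figure D2:**
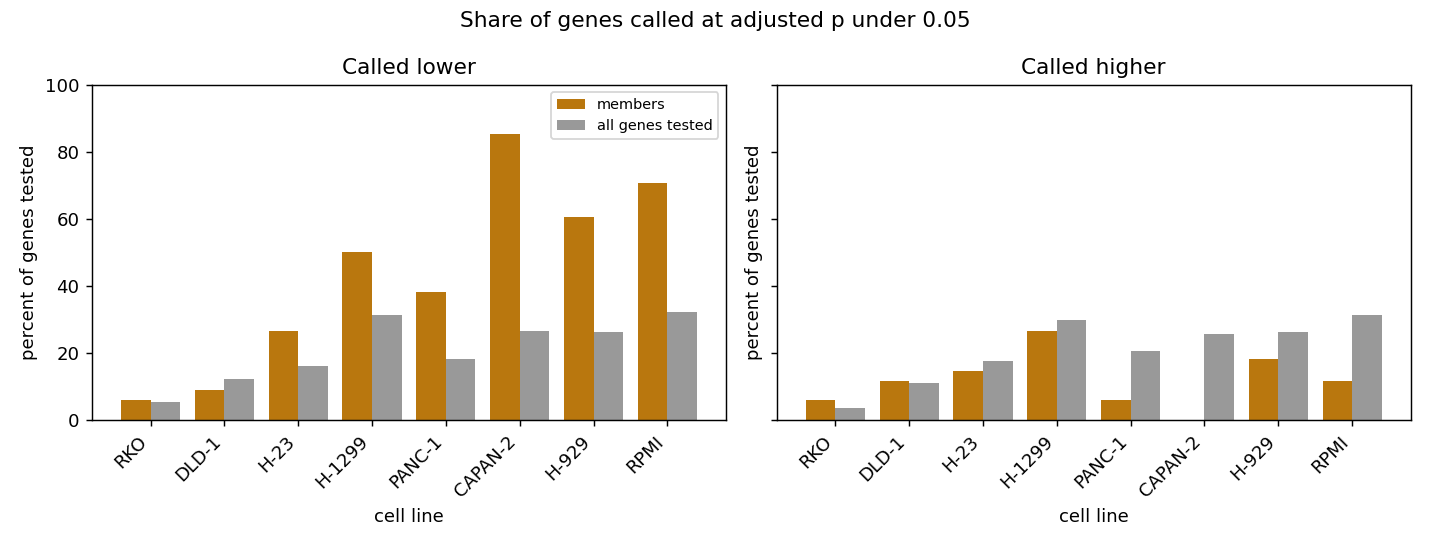
Percent of tested genes called lower (left) and higher (right) after carfilzomib in each line, for the members (brown bars) and for all genes (grey bars), at an adjusted p under 0.05 in edgeR. The brown bar for lower calls stands at 85.3% in CAPAN-2 beside a grey bar at 26.7%, while in RKO they are 5.88% and 5.28%.

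The share of all counts that fell on the 34 genes gives the summed level, and SCD and FASN together held 24.5% to 58.2% of the members' counts. In CAPAN-2 the share was 0.895 to 0.967% after DMSO and 0.447 to 0.465% after carfilzomib. It went from 0.744 to 0.869% to 0.471 to 0.473% in RPMI, from 0.520 to 0.564% to 0.314 to 0.329% in H-1299, from 0.844 to 0.885% to 0.595 to 0.638% in PANC-1 and from 0.417 to 0.464% to 0.283 to 0.315% in H-929. In these 5 lines all treated libraries lay below all DMSO libraries. In RKO all treated libraries lay above, at 0.417 to 0.429% against 0.395 to 0.410%. The treatments overlapped in DLD-1, at 0.543 to 0.561% and 0.547 to 0.573%, and in H-23, at 0.366 to 0.382% and 0.352 to 0.369%. A fall in bulk RNA can come from fewer expressing cells or from less RNA per cell, and these cannot be told apart. No p is given for these sums.

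The genes that sense sterols, SREBF1, SREBF2, SCAP and INSIG1, had 18 calls lower and 2 higher in 32 tests of 4 genes in 8 lines. Over the same 8 fits, 21.1% of the tests of all genes gave a call lower and 20.8% a call higher. SREBF1, which encodes SREBP-1, fell in 5 lines and most of all in H-1299. There its libraries held 319.8, 287 and 351 CPM after DMSO and 88.8, 93.9 and 86.6 CPM after carfilzomib, on the line's own TMM-adjusted library totals. All treated libraries lay below all DMSO libraries, a log2 fold change of -1.83 ± 0.066 (SE, adjusted p = 3.36e-10). Errors after a log2 fold change are standard errors (SE) here and below. In RPMI, SREBF1 went from 409.8, 331 and 329 to 209, 188 and 167 CPM (-0.92 ± 0.092 SE, adjusted p = 1.08e-06), and without the high DMSO replicate 1 the value was -0.82. CAPAN-2 held 219, 235 and 271 and then 143, 139 and 147 CPM (-0.76 ± 0.072), PANC-1 387, 391 and 389.8 and then 256, 250.4 and 226 CPM (-0.67 ± 0.042), and H-23 317, 295 and 287 and then 210.2, 176 and 210.2 CPM (-0.59 ± 0.060), with no overlap in any of them. RKO went the other way: SREBF1 rose there from 166, 155 and 158 to 184, 188 and 186 CPM (0.22 ± 0.042 SE, adjusted p = 0.0068), a call that the joint fit of all 48 libraries did not make. The treatments overlapped in DLD-1, at 265, 238 and 225 and 239, 242 and 237 CPM (-0.020 ± 0.058 SE, adjusted p = 0.841), and in H-929, at 353, 296 and 379 and 296, 261 and 323 CPM (-0.22 ± 0.10 SE, adjusted p = 0.0718).

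SREBF2, which encodes SREBP-2, fell in 4 lines. Its largest fall was in H-929, from 256, 245 and 231 to 129.9, 129.6 and 157 CPM (-0.81 ± 0.089 SE, adjusted p = 3.86e-06). CAPAN-2 went from 105, 109.9 and 128 to 74.02, 77.8 and 69.4 CPM (-0.63 ± 0.075), PANC-1 from 89.3, 84.2 and 76.8 to 59.3, 61.8 and 58.5 CPM (-0.48 ± 0.052) and H-1299 from 68.3, 74.04 and 72.6 to 58.97, 57.7 and 57.9 CPM (-0.30 ± 0.049). In these 4 lines no treated library reached the lowest DMSO library. The other 4 lines overlapped and were not called: RKO at 309, 295 and 291 and 305, 294 and 296 CPM, DLD-1 at 154, 135 and 144 and 132, 139 and 138, H-23 at 60.5, 60.4 and 54.3 and 57.1, 57.4 and 59.8, and RPMI at 173, 176 and 173 and 178, 174 and 148. RPMI, H-23 and RKO had calls for SREBF1, a rise in RKO, and not for SREBF2, and H-929 had the reverse. The difference between the genes was not tested. SCAP, the escort of the precursors, fell in 5 lines, from -0.16 in H-23 to -0.62 in H-929, and its call in H-23 was not made by the joint fit.

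INSIG1, the sterol-dependent anchor of SCAP and itself a target of SREBPs, fell in 4 lines. CAPAN-2 stood apart: its libraries went from 369.6, 367 and 360.1 to 179, 175 and 178 CPM (-1.04 ± 0.051 SE, adjusted p = 6.72e-10). RPMI, with the highest INSIG1 level of the 8 lines, went from 636, 551 and 495 to 420.2, 446 and 447 CPM (-0.36 ± 0.076 SE, adjusted p = 0.00107; -0.27 without DMSO replicate 1). The falls were smaller in PANC-1, from 129.7, 119 and 118 to 101, 104 and 98.7 CPM (-0.27 ± 0.042), and in H-1299, from 135, 138 and 136 to 121, 120.3 and 119 CPM (-0.18 ± 0.039). DLD-1 rose slightly, from 247, 244 and 244 to 261, 276 and 275 CPM (0.14 ± 0.041 SE, adjusted p = 0.0286), a call lost in 4 of 6 fits without 1 library, with a replicate block and in the joint fit. RKO at 68.5, 58.3 and 66.4 and 58.3, 63.6 and 55.9 CPM, H-23 at 70.1, 82.9 and 68.6 and 68.9, 69.9 and 75.2, and H-929 at 149, 157 and 165 and 133, 154 and 172 overlapped and were not called.

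**Figure D3:**
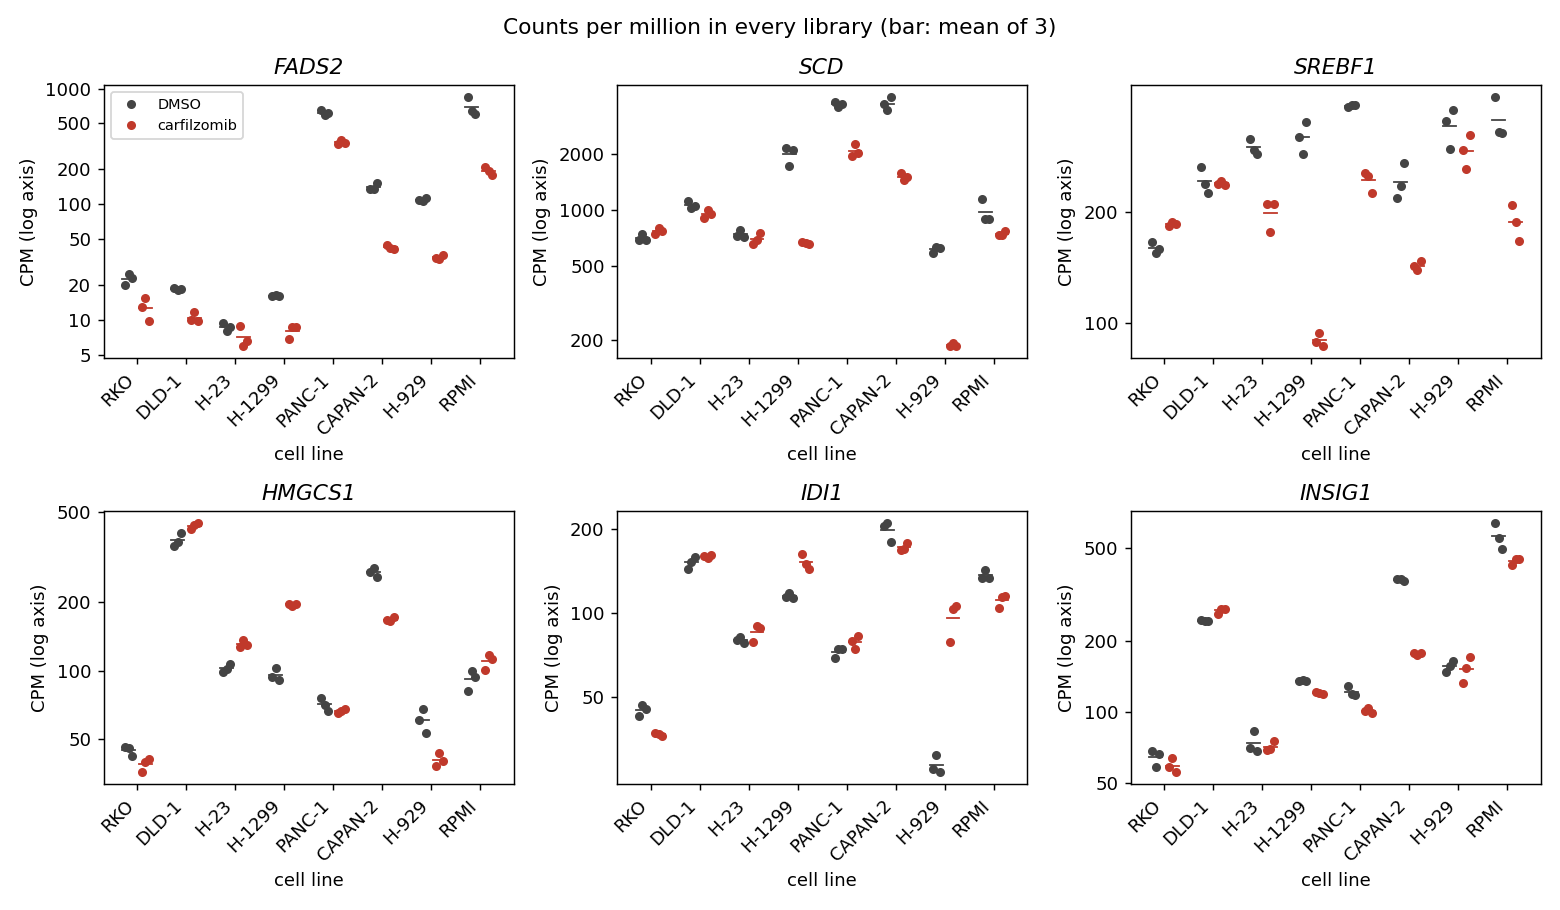
CPM (log axes) of FADS2, SCD, SREBF1, HMGCS1, IDI1 and INSIG1 in every library, by line, with DMSO in grey, carfilzomib in red and a bar at the mean of 3. FADS2 lies lower after carfilzomib in every line but overlaps in H-23, while HMGCS1 is higher in H-1299 and lower in CAPAN-2, and IDI1 is higher in H-929.

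The mevalonate arm builds the isoprenoid unit and farnesyl diphosphate from acetyl-CoA, and its 7 genes all moved one way in CAPAN-2 alone: over the lines 21 calls were lower (all genes 21.1%) and 9 higher (all genes 20.8%) in 56 tests. In CAPAN-2 all 7 fell, from -0.21 for IDI1 to -1.06 for FDPS, and the call of IDI1 was lost in 4 of 6 fits without 1 library. RPMI had 5 lower and 1 higher (all genes 32.2% and 31.3%), and H-929 4 lower and 2 higher (26.2% and 26.4%), while H-1299 had 1 lower and 3 higher (31.3% and 29.8%). HMGCS1, the synthase that makes HMG-CoA, was called in both directions. In H-1299 its mean of 3 libraries was 95.8 ± 6.002 CPM after DMSO and 195 ± 2.22 CPM after carfilzomib (± SD). The log2 fold change was 1.03 ± 0.049 (SE, adjusted p = 2.7e-09), with every treated library above every DMSO library. It also rose in H-23 (0.36 ± 0.043), RPMI (0.27 ± 0.075) and DLD-1 (0.21 ± 0.053, lost in 4 of 6 fits without 1 library), and it fell in CAPAN-2 (-0.69 ± 0.055) and H-929 (-0.58 ± 0.11).

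IDI1, the isomerase of the isoprenoid unit, had the largest rise of any member. Its H-929 libraries held 27.4, 30.9 and 26.9 CPM after DMSO and 78.4, 103 and 106 CPM after carfilzomib (1.75 ± 0.12 SE, adjusted p = 5.24e-08). IDI1 also rose in H-1299, from 115 ± 2.46 to 152 ± 9.64 CPM (SD, n = 3), and was called lower in RKO (-0.29 ± 0.068, lost in 5 of 6 fits without 1 library), CAPAN-2 (-0.21 ± 0.064) and RPMI (-0.29 ± 0.057). MVD, the decarboxylase before it, rose in the same pair of lines, by 0.82 ± 0.15 in H-929 and 0.51 ± 0.061 in H-1299, and fell in CAPAN-2. The kinase PMVK fell in 5 lines, most in RPMI (-1.24 ± 0.11) and H-1299 (-1.02 ± 0.10), and its call in H-23 was lost in 4 of 6 fits without 1 library and in the joint fit. FDPS, which makes farnesyl diphosphate, fell in 4 lines, from -0.22 in PANC-1 to -1.06 in CAPAN-2, and its estimate was below 0 in all 8. ACAT2, the thiolase at the head of the arm, fell in 4 lines and rose in PANC-1 (0.33 ± 0.044); its call in H-929 was lost in 4 of 6 fits without 1 library. The kinase MVK fell in CAPAN-2 and RPMI.

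The sterol arm turns farnesyl diphosphate into squalene, lanosterol and cholesterol. Its 11 genes gave 36 calls lower (all genes 21.1%) and 12 higher (all genes 20.8%) in 87 tests, with medians of -0.92 in CAPAN-2, -0.92 in H-929 and -0.79 in RPMI. In H-1299 the median was -0.0044, with 4 genes higher (all genes 29.8%) and 4 lower (all genes 31.3%). SQLE, the squalene epoxidase, fell steeply in 3 lines. RPMI went from 169.7, 196 and 189 to 69.3, 73.1 and 64.5 CPM (-1.43 ± 0.067 SE, adjusted p = 6.64e-10), H-929 from 57.1, 69.96 and 65.4 to 24.95, 27.3 and 26.7 CPM (-1.28 ± 0.11) and CAPAN-2 from 296, 322 and 332 to 154, 148 and 145 CPM (-1.09 ± 0.059). It fell slightly in PANC-1, from 151, 142 and 144 to 118, 129 and 126 CPM (-0.23 ± 0.041), and rose in H-23, from 60.5, 56.9 and 59.6 to 63.5, 68.7 and 64.4 CPM (0.15 ± 0.045 SE, adjusted p = 0.0174, lost in 3 of 6 fits without 1 library and in the joint fit). RKO at 168, 165 and 164 and 164, 164 and 159.8 CPM, DLD-1 at 194, 191 and 191 and 178, 191 and 177, and H-1299 at 156, 170.4 and 159.96 and 159, 161 and 164 overlapped and were not called.

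TM7SF2, a sterol reductase, spanned the widest range of log2 fold changes among members with a row of their own. In H-1299 it fell from 30.1, 21.7 and 29.2 to 6.87, 7.91 and 6.18 CPM (-1.94 ± 0.13 SE, adjusted p = 6.81e-08), and in H-929 it rose from 16.95, 14.2 and 13.8 to 28.5, 31.9 and 35.6 CPM (1.09 ± 0.14 SE, adjusted p = 1.64e-05). Neither pair of groups overlapped. CAPAN-2 fell from 41.5, 40.2 and 45.1 to 17.6, 15.7 and 15.6 CPM (-1.37 ± 0.073), RPMI from 43.7, 44.8 and 43.3 to 16.7, 18.1 and 21.4 (-1.23 ± 0.089) and PANC-1 from 109, 108 and 111 to 73.2, 70.9 and 61.2 (-0.67 ± 0.055). H-23 fell from 17.9, 16.6 and 17.2 to 12.9, 11.9 and 12.8 CPM (-0.47 ± 0.077), while RKO rose from 32.8, 33.3 and 29.9 to 40.7, 44.6 and 42.02 CPM (0.41 ± 0.076). DLD-1, at 64.9, 62.1 and 63.1 and 58.2, 61.3 and 65.5 CPM, overlapped.

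EBP, the sterol isomerase, had an estimate below 0 in all 8 lines and fell in 5. RPMI went from 291, 264 and 272 to 98.4, 95.8 and 90.9 CPM (-1.54 ± 0.057 SE, adjusted p = 8.93e-11), H-929 from 61.5, 62.6 and 63.6 to 32.8, 24.9 and 25.4 (-1.17 ± 0.12) and CAPAN-2 from 198, 199.6 and 206 to 111, 106 and 101 (-0.92 ± 0.055). H-1299 fell from 49.5, 59.8 and 52.7 to 34.01, 37.03 and 37.9 CPM (-0.57 ± 0.075) and H-23 from 26.8, 29.9 and 30.01 to 26.4, 22.6 and 25.6 (-0.22 ± 0.070), the latter a call lost in 3 of 6 fits without 1 library. The treatments overlapped for EBP in RKO (38.9, 30.6 and 32.7 and 30.6, 26.3 and 31.6 CPM), DLD-1 (86.4, 81.7 and 75.7 and 76.5, 74.04 and 70.2) and PANC-1 (73.2, 62.01 and 64.2 and 61.03, 62.2 and 62.8). DHCR7, the reductase of the last step to cholesterol, fell in 4 lines. Its libraries went from 62.05, 57.6 and 61.8 to 21.9, 18.4 and 25.2 CPM in H-929 (-1.47 ± 0.12 SE, adjusted p = 3.29e-07), from 323, 314 and 298 to 124, 140.4 and 122 in RPMI (-1.28 ± 0.063), from 337, 358 and 369.7 to 189.9, 176 and 173 in CAPAN-2 (-0.98 ± 0.059) and from 71.96, 83.8 and 78.7 to 50.9, 56.1 and 51.8 in H-1299 (-0.56 ± 0.063). In the other lines it overlapped, at 41.01, 30.3 and 33.99 and 36.02, 36.7 and 40.1 CPM in RKO, 171, 155 and 154 and 156, 169 and 163 in DLD-1, 100.03, 95.00 and 93.2 and 98.5, 96.8 and 104 in H-23, and 235, 209 and 212 and 204, 219.9 and 199.9 in PANC-1.

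The remaining sterol enzymes also had calls in both directions. The lanosterol demethylase CYP51A1 fell in H-929 (-1.37 ± 0.10), CAPAN-2 (-1.001 ± 0.054) and RPMI (-0.22 ± 0.060) and rose in H-23, from 142 ± 4.16 to 193 ± 14.3 CPM (SD, n = 3). MSMO1, which oxidises methyl groups of the sterol ring, fell in the same 3 lines, at -1.23 in H-929, -0.79 in RPMI and -0.62 in CAPAN-2, and rose in H-1299 (0.30 ± 0.062) and in DLD-1 (0.22 ± 0.068, lost in 5 of 6 fits without 1 library). In H-1299 the dehydrogenase NSDHL (0.87 ± 0.080), the desaturase SC5D (0.34 ± 0.054) and the reductase HSD17B7 (0.34 ± 0.083) rose as well. HSD17B7 also rose in RPMI (0.55 ± 0.10) and fell in CAPAN-2 (-0.71 ± 0.080), NSDHL fell in CAPAN-2 and H-929, and SC5D rose in H-23 and fell in H-929 (-0.67 ± 0.14) and RPMI, the last lost in 2 of 6 fits without 1 library. STARD4, a carrier of cholesterol between membranes, rose in H-1299 (0.44 ± 0.055) and RPMI (0.44 ± 0.071) and was not called elsewhere.

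LSS and FDFT1, the lanosterol and squalene synthases, come with the doubt of their shared identifiers. The LSS row fell in H-1299, CAPAN-2 and RPMI, each at -1.20 on the log2 scale, and less in H-23 and PANC-1, the last a call the joint fit did not make, and it rose in H-929 (0.70 ± 0.16). With the rows of the identifier summed, the value was -1.23 (adjusted p = 1.11e-07) in H-1299, and the calls in H-929 and H-23 were lost, at 0.24 (adjusted p = 0.303) and -0.39 (adjusted p = 0.126). The FDFT1 row held 4 to 139 counts per library outside RPMI, apart from 1 DMSO library of DLD-1 with 1522. In DLD-1 its value of -2.69 (adjusted p = 0.0808) came with 2.33, 50.4 and 2.45 CPM in the DMSO libraries, of which 1 stood far above the others. With its rows summed, FDFT1 gave -0.24 (adjusted p = 0.593) in DLD-1, -0.50 (adjusted p = 0.0375) in H-1299, where the single row was 0.24 and not called, -0.58 (adjusted p = 0.00191) in CAPAN-2, -1.501 (adjusted p = 3.37e-06) in H-929 and -0.70 (adjusted p = 4.21e-05) in RPMI.

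Fatty acid synthesis had the lowest median of the 3 arms on average over the lines, -0.61, with 35 calls lower (all genes 21.1%) and 4 higher (all genes 20.8%) in 64 tests of 8 genes, and the 4 higher calls were all of LPIN1. The median of the 8 genes was -1.31 in CAPAN-2, -1.10 in RPMI, -1.17 in H-929 and -0.84 in H-1299, against -0.24 in PANC-1 and -0.12 in RKO. In H-1299, 7 of 8 fatty acid genes fell (all genes 31.3%), while 7 of the 18 genes of the mevalonate and sterol arms rose (all genes 29.8%) and 5 fell. The 7 that fell include the ACACA row, whose call was lost with its rows summed. FDFT1, of the sterol arm, was called lower with its rows summed. The difference between the arms was not tested.

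**Figure D4:**
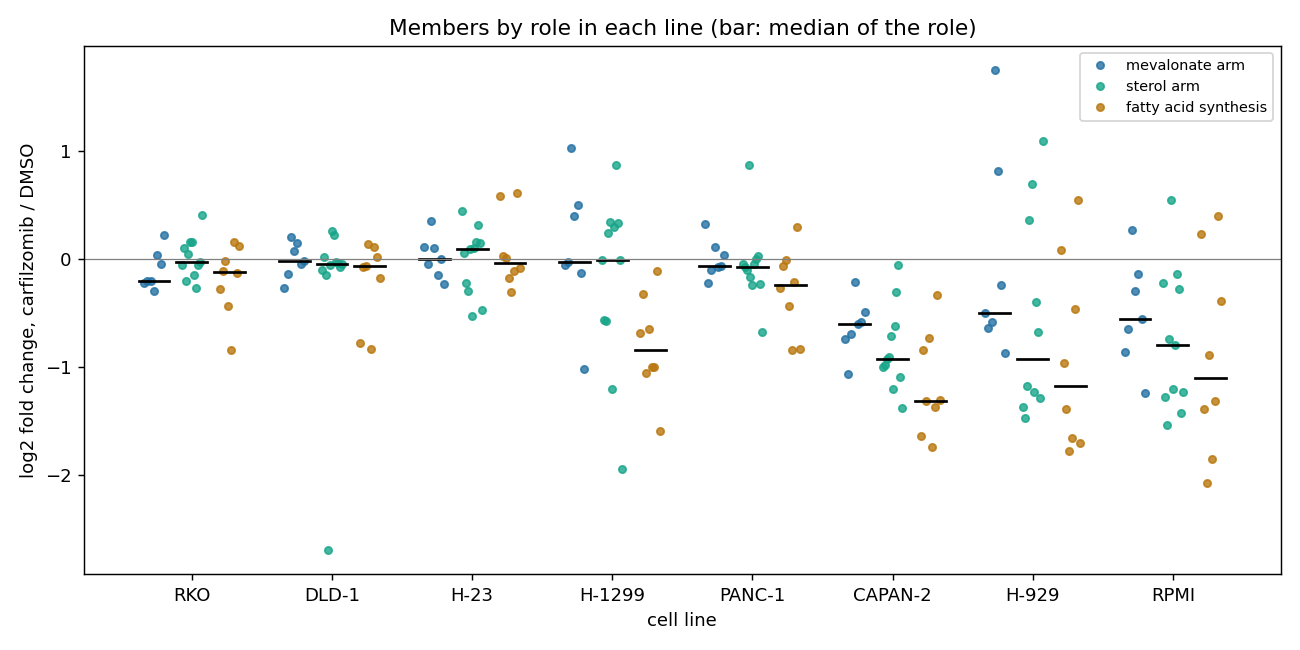
Log2 fold change (carfilzomib over DMSO) of each gene of the mevalonate, sterol and fatty acid arms in each line, with a bar at the median of the arm. In H-1299 the fatty acid bar lies at -0.84 and the other bars near 0, while in CAPAN-2, H-929 and RPMI all 3 bars lie at -0.50 or lower.

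FADS2, a desaturase of polyunsaturated fatty acid synthesis, was lower in more lines than any other member: 7 of 8, a count reached by 1.7% of the 11622 genes tested in every line. In RPMI it fell from 839.99, 646 and 607 to 208, 194 and 178 CPM (-1.85 ± 0.10 SE, adjusted p = 3.57e-09; -1.71 without DMSO replicate 1). CAPAN-2 went from 136, 136 and 154 to 44.2, 42.2 and 41.1 CPM (-1.74 ± 0.065) and H-929 from 108, 107 and 113 to 34.6, 33.4 and 36.2 CPM (-1.65 ± 0.091). In these 3 lines every treated library lay far below every DMSO library. PANC-1 fell from 647, 588 and 615 to 334, 357 and 339 CPM (-0.84 ± 0.038) and H-1299 from 15.96, 16.5 and 15.96 to 6.83, 8.67 and 8.66 (-1.001 ± 0.11). No other member fell in both colon lines; FADS2 did so, from 20.2, 24.9 and 22.9 to 12.9, 15.5 and 9.70 CPM in RKO (-0.84 ± 0.16 SE, adjusted p = 0.00661) and from 19.02, 18.3 and 18.4 to 9.89, 11.6 and 9.77 in DLD-1 (-0.83 ± 0.089 SE, adjusted p = 0.000115), with no overlap. H-23, with the lowest level, was not called, at 9.33, 7.97 and 8.65 and 8.86, 5.98 and 6.52 CPM (-0.30 ± 0.14 SE, adjusted p = 0.126).

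FADS1, its partner desaturase, fell in 6 lines. H-929 went from 194, 203 and 197 to 61.9, 55.1 and 56.5 CPM (-1.77 ± 0.083 SE, adjusted p = 8.88e-10) and RPMI from 516, 393 and 387 to 232, 245 and 225 (-0.88 ± 0.092; -0.75 without DMSO replicate 1). CAPAN-2 fell from 288, 313 and 315 to 189, 183 and 181 CPM (-0.73 ± 0.056), H-1299 from 165, 172 and 171 to 107, 108 and 109.9 (-0.64 ± 0.040), PANC-1 from 451, 405 and 406 to 289.6, 324 and 320.5 (-0.43 ± 0.049) and H-23 from 104, 99.2 and 103 to 93.5, 90.8 and 88.2 (-0.17 ± 0.040). The colon lines had the lowest levels and were not called, RKO at 6.33, 5.59 and 7.41 and 3.50, 4.91 and 5.92 CPM and DLD-1 at 10.03, 11.2 and 11.05 and 12.5, 11.5 and 11.6. FADS1 (chromosome 11, 61799627 to 61817003) and FADS2 (61816203 to 61867354, RefSeq on GRCh38.p14) lie on opposite strands and share 801 bases. The use of strand in counting is not given in the sources used here, and without it reads from those bases cannot be told apart.

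SCD, the desaturase that makes monounsaturated fatty acids, was among the most abundant members and fell in 6 lines. In H-929 it went from 584, 628 and 623 to 185, 193 and 186 CPM (-1.70 ± 0.071 SE, adjusted p = 2.68e-10), and in H-1299 from 2137, 1725 and 2089 to 668, 659 and 653 CPM (-1.59 ± 0.067 SE, adjusted p = 1.07e-09). CAPAN-2 fell from 3684, 3454 and 4022 to 1582, 1439 and 1499 CPM (-1.30 ± 0.063), PANC-1 from 3801, 3554 and 3698 to 1950.1, 2254 and 2030.3 (-0.83 ± 0.043) and RPMI from 1144, 891 and 889 to 731, 733 and 769.7 (-0.39 ± 0.083; -0.27 without DMSO replicate 1, adjusted p = 0.000688). The fall in DLD-1, from 1119, 1021 and 1051 to 900.4, 992 and 947 CPM (-0.17 ± 0.048 SE, adjusted p = 0.028), was lost in 3 of 6 fits without 1 library, with library totals, with a replicate block and in the joint fit. RKO at 688, 743 and 684 and 737, 795 and 770.2 CPM and H-23 at 724, 781 and 710.3 and 654, 690.2 and 751 overlapped and were not called.

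ELOVL6, which elongates palmitate, had the largest fall of a member with a row of its own, in RPMI, from 45.01, 38.2 and 41.2 to 9.48, 9.75 and 10.3 CPM (-2.07 ± 0.090 SE, adjusted p = 3.35e-10). It fell in H-929 from 9.88, 12.6 and 9.40 to 4.34, 3.89 and 3.94 CPM (-1.39 ± 0.24), in CAPAN-2 from 81.6, 80.4 and 85.7 to 32.1, 32.8 and 35.1 (-1.31 ± 0.060) and in H-1299 from 45.5, 44.9 and 42.7 to 20.7, 19.9 and 23.7 (-1.05 ± 0.074). Elsewhere the log2 fold change was -0.015, -0.059, 0.013 and -0.0043: RKO held 78.9, 81.6 and 78.9 and 77.96, 83.5 and 75.5 CPM, DLD-1 46.4, 44.3 and 52.4 and 42.8, 48.1 and 46.5, H-23 11.3, 12.02 and 10.496 and 11.5, 10.6 and 11.9, and PANC-1, where the gene is barely expressed, 1.11, 1.19 and 1.47 and 1.59, 1.25 and 0.931. FASN, the fatty acid synthase, fell in 5 lines. CAPAN-2 went from 450.2, 493 and 480.5 to 176, 181 and 197 CPM (-1.36 ± 0.061 SE, adjusted p = 3.31e-10), RPMI from 1371, 1029 and 995 to 491, 435 and 439.7 (-1.31 ± 0.10; -1.16 without DMSO replicate 1) and H-1299 from 509.9, 601 and 562 to 288, 292 and 261 (-0.99 ± 0.061). H-929 went from 836, 715 and 1032 to 575, 584 and 721 CPM (-0.46 ± 0.12), where the treatments overlapped, and PANC-1 from 1309, 1299.1 and 1272 to 1130.3, 1125 and 1103 (-0.21 ± 0.024), a call the joint fit did not make. It was not called in RKO (984, 859 and 916 and 1006, 1023 and 1049.6 CPM), DLD-1 (888, 836 and 733 and 829, 895 and 930.1) or H-23 (607, 626 and 592 and 574, 519 and 596).

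ACLY, which makes cytosolic acetyl-CoA from citrate, fell in RPMI (-1.39 ± 0.052), H-929 (-0.96 ± 0.071), CAPAN-2 (-0.84 ± 0.057) and H-1299 (-0.32 ± 0.043). In RPMI its level went from 764 ± 15.5 to 292 ± 11.8 CPM (SD, n = 3). The ACACA row, for the acetyl-CoA carboxylase, was called lower in H-1299 and CAPAN-2, but its libraries overlapped and the calls were each lost in 4 of 6 fits without 1 library. With its rows summed, ACACA was lower in CAPAN-2, at -1.25 (adjusted p = 1.32e-05), and in DLD-1, at -1.06 (adjusted p = 0.0086), higher in H-23, at 0.79 (adjusted p = 0.0015), and not called in H-1299, at -0.56 (adjusted p = 0.052). LPIN1, the phosphatidate phosphatase that feeds triglyceride synthesis, was the exception of the group: it rose in H-23 (0.61 ± 0.041), H-929 (0.55 ± 0.079), RPMI (0.40 ± 0.049) and PANC-1 (0.30 ± 0.040) and fell in CAPAN-2 (-0.33 ± 0.060).

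The LXR targets ABCA1, ABCG1 and MYLIP had 3 calls higher (all genes 20.8%) and 7 lower (all genes 21.1%) in 24 tests. ABCA1, an efflux pump for cholesterol, fell in PANC-1, from 28.3, 34.8 and 35.1 to 20.4, 20.8 and 20.6 CPM (-0.67 ± 0.075 SE, adjusted p = 1.52e-05), and in H-1299, from 59.5, 45.1 and 55.9 to 45.2, 43.9 and 44.5 CPM (-0.27 ± 0.086 SE, adjusted p = 0.0164), where the libraries overlapped and the call was lost in 3 of 6 fits without 1 library and in the joint fit. In RPMI it was not called, at 74.3, 29.4 and 27.3 and 39.3, 30.9 and 41.7 CPM (-0.19), but DMSO replicate 1 decided the sign: without it ABCA1 was higher, at 0.38 (adjusted p = 0.00859). RKO held 13.3, 9.80 and 10.1 and 14.1, 14.7 and 14.4 CPM (0.39, adjusted p = 0.146) and H-929 204, 207 and 196 and 184, 191 and 188, in both without overlap and without a call. DLD-1 at 0.665, 0.629 and 0.711 and 1.28, 0.9002 and 0.529, H-23 at 38.4, 36.4 and 38.3 and 40.2, 37.8 and 38.2, and CAPAN-2 at 7.88, 6.73 and 8.38 and 7.18, 7.62 and 8.30 CPM overlapped.

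ABCG1, a further sterol exporter, rose in DLD-1 from 2.26, 2.28 and 2.33 to 4.79, 4.12 and 5.09 CPM (1.02 ± 0.15 SE, adjusted p = 0.000665). It fell in H-23, from 13.7, 13.3 and 13.8 to 10.3, 7.64 and 9.35 CPM (-0.59 ± 0.11), in PANC-1, from 7.54, 8.10 and 8.52 to 5.59, 5.48 and 5.18 (-0.57 ± 0.10), and in H-929, from 27.1, 26.9 and 24.3 to 16.97, 19.6 and 22.2 (-0.42 ± 0.14, lost in 3 of 6 fits without 1 library). RKO and H-1299 held 1 to 20 and 11 to 16 counts per library, at 0.160, 0.871 and 0.182 and 1.27, 0.0733 and 0.819 CPM and at 0.237, 0.279 and 0.305 and 0.523, 0.352 and 0.565 CPM. The treatments overlapped in RKO but not in H-1299, and no change was detectable at such low counts. CAPAN-2 at 25.5, 23.6 and 28.5 and 28.7, 27.9 and 28.3 and RPMI at 162, 101 and 94.3 and 141, 138 and 128 CPM were not called. Without DMSO replicate 1, ABCG1 was higher in RPMI, at 0.47 (adjusted p = 1.47e-05). MYLIP rose in H-929, from 45.8, 44.3 and 47.7 to 63.5, 58.2 and 69.8 CPM (0.48 ± 0.10 SE, adjusted p = 0.00122), and in H-1299, from 25.8, 20.9 and 21.8 to 30.3, 29.5 and 28.7 (0.37 ± 0.084). It fell in RPMI, from 174, 145 and 151 to 101, 98.4 and 109 CPM (-0.60 ± 0.070), and in H-23, from 34.4, 41.2 and 34.9 to 31.9, 26.98 and 26.1 (-0.38 ± 0.081). RKO at 16.02, 20.2 and 19.4 and 23.5, 24.1 and 21.5, DLD-1 at 41.8, 42.1 and 40.9 and 41.4, 42.4 and 41.2, PANC-1 at 22.3, 22.8 and 22.8 and 23.01, 20.3 and 21.8, and CAPAN-2 at 14.6, 14.2 and 14.04 and 16.2, 16.1 and 15.7 CPM were not called. The myeloma lines had opposite calls for MYLIP, as they did for IDI1, TM7SF2, HMGCS1 and the LSS row.

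Over all lines together the members were mostly lower. A joint edgeR fit of the 48 libraries called 22 members lower on average over the 8 lines (all genes 23.9%) and 2 higher (all genes 19.8%), with a median of -0.34 where that of all 22309 genes was 0.016. The 4 sensors all fell on average, as did 4 of 7 mevalonate genes, 8 of 11 sterol genes and 6 of 8 fatty acid genes. The LXR targets and STARD4 were not called. FADS2 had the largest average fall, -1.18 ± 0.038 (SE, adjusted p = 4.53e-29), followed by SCD (-0.78 ± 0.026), ELOVL6 (-0.78 ± 0.039), FADS1 (-0.66 ± 0.032), EBP (-0.65 ± 0.028) and SREBF1 (-0.64 ± 0.031). TM7SF2 (-0.57 ± 0.035), DHCR7 (-0.56 ± 0.027), FASN (-0.56 ± 0.033) and SQLE (-0.54 ± 0.021) came next. The 2 members called higher were IDI1 (0.17 ± 0.025) and LPIN1 (0.12 ± 0.019), and without H-929 the average of IDI1 was -0.041 and no longer called. This test takes its error from replicates. When each line counted as 1 observation, limma called 0 of 33 members tested higher (all genes 0.49%) and 1 lower (all genes 0.387%), FADS2, at -1.13 (adjusted p = 0.029).

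**Figure D5:**
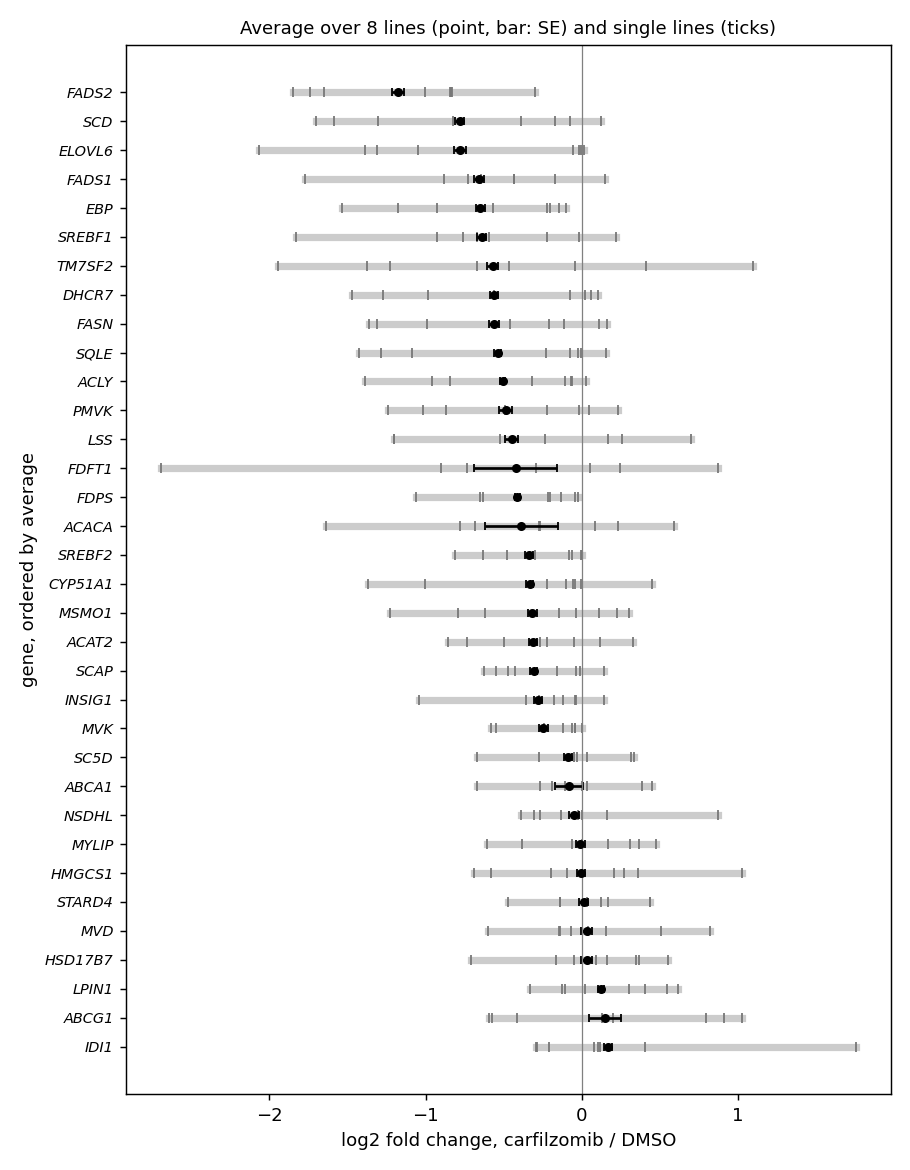
Average log2 fold change over the 8 lines (black points, bars: SE over replicates in the joint fit) and the values in single lines (ticks on the grey range) for the 34 members, ordered by average. FADS2 has the lowest average, -1.18, with all ticks below 0, and apart from EBP and FDPS the other ranges cross 0.

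The response differed between lines for 33 of the 34 members in the joint fit (all genes 67.7%), the ACACA row being the exception. With the rows of 1 identifier summed, 34 members differed. The myeloma lines were then set against the other 6. In this contrast 23 members were lower in the myeloma lines (all genes 25.2%) and 5 higher (all genes 19.1%), with a median of -0.46 beside 0.064 over all genes. ELOVL6 had the largest difference, -1.43 ± 0.094 (SE, adjusted p = 2.03e-17), from a mean log2 fold change of -1.85 in the myeloma lines and -0.42 in the others. SQLE (-1.25 ± 0.054 SE, adjusted p = 9.17e-24) and DHCR7 (-1.24 ± 0.067 SE, adjusted p = 1.96e-20) followed, then EBP, MSMO1, FADS1 and ACLY, with -1.10, -1.09, -1.05 and -1.05. Higher in the myeloma lines were IDI1 (0.59 ± 0.060 SE, adjusted p = 1.86e-11), TM7SF2, HSD17B7, LPIN1 and MVD, and for IDI1, TM7SF2 and MVD that came with a rise in H-929 and no rise in RPMI. SREBF1 and INSIG1 were not called, at -0.070 and -0.048. Only 2 myeloma lines were measured, and the pancreatic line CAPAN-2 had a lower median over the members (-0.73) than either of them. On the joint scale the median of all genes moved by -0.16 in H-929, -0.081 in RPMI and -0.070 in H-1299 relative to the line's own scale, and by -0.023 to 0.019 in the other 5 lines. Over the genes of each line's own fit, the joint-scale median was -0.13 in H-929 and -0.074 in RPMI. It was -0.085 in H-1299 and -0.020 to 0.00095 in the other 5 lines. The background of 0.064 covers all 22309 genes of the joint fit, and over the genes of the line fits it would be lower.

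After DMSO alone the lines already differed in these genes. In the joint edgeR fit of the counts the DMSO level differed between lines for 34 of 34 members (all genes 97.6%). Levels are given in FPKM, which scale counts to library total and to exon length (GENCODE 29). SCD was the most abundant of the 31 members with a length, from 118 ± 4.78 FPKM in RKO to 750.1 ± 58.1 in CAPAN-2 (SD, n = 3). FASN, with a median over lines of 86.8 FPKM, and ACLY, with 78.3, came next and were more even: FASN ran from 54.8 in CAPAN-2 to 137 in PANC-1 and ACLY from 61.8 in H-1299 to 165 in RPMI. FADS2, FADS1 and ELOVL6 spanned the widest ranges of the synthesis genes. FADS2 ran from 0.708 ± 0.0585 in H-23 to 71.1 ± 11.6 in RPMI, FADS1 from 0.566 ± 0.0901 in RKO to 47.5 ± 7.25 in RPMI, and ELOVL6 from 0.171 ± 0.0258 in PANC-1 to 12.2 ± 0.426 in CAPAN-2. CAPAN-2 had the highest DMSO level of 12 members, among them SQLE, CYP51A1, MSMO1 and DHCR7, and RPMI of 11, among them INSIG1, EBP, FDPS and SREBF1. RKO had the lowest level of 10, among them HMGCS1, FDPS, DHCR7 and SCD. SREBF1 ran from 17.8 ± 0.586 FPKM in RKO to 49.9 ± 5.75 in RPMI, and SREBF2 from 6.97 ± 0.350 in H-23 to 35.4 ± 0.733 in RKO.

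A list of 27 further genes of the pathway, none of them a member, was measured as well. Of these, 26 could be tested in at least 1 line. On average over the lines 12 were lower (all genes 23.9%) and 4 higher (all genes 19.8%). Their median was -0.070, beside 0.016 over all genes. By line, 13 fell (all genes 26.7%) and 7 rose (25.7%) of 26 in CAPAN-2, 14 fell (all genes 32.2%) and 7 rose (31.3%) of 25 in RPMI, 14 fell (all genes 26.2%) and 6 rose (26.4%) of 26 in H-929, 9 fell (all genes 31.3%) and 12 rose (29.8%) of 26 in H-1299. Further, 7 fell (all genes 18.2%) and 8 rose (20.5%) of 26 in PANC-1, 2 fell (all genes 16.2%) and 10 rose (17.7%) of 26 in H-23, 3 fell (all genes 12.1%) and 5 rose (10.9%) of 25 in DLD-1, and 3 fell (all genes 5.28%) and 2 rose (3.62%) of 24 in RKO. ME1, the malic enzyme that supplies NADPH, had the largest average rise, 1.16, and was higher in all 7 lines where it was tested. In CAPAN-2 it rose from 25.2, 25.9 and 23.9 to 106, 106 and 111 CPM (2.11 ± 0.060). In RKO it had 0 counts in every library, so its average has no usable error. NPC1, which exports cholesterol from lysosomes, averaged 0.48 ± 0.020 and rose in 6 lines, most in H-1299, from 73.3, 83.7 and 80.2 to 205, 205 and 201 CPM (1.37 ± 0.051). SCD5, a desaturase related to SCD, had the largest average fall, -0.45 ± 0.042, which came from RPMI (23.1, 26.5 and 25.7 to 4.47, 6.80 and 5.48 CPM, -2.16 ± 0.14) and H-929 (-0.82 ± 0.25). MBTPS2, a protease that frees SREBPs in the Golgi, averaged -0.45 ± 0.040 and fell in 4 lines, most in H-929, from 26.8, 24.3 and 24.2 to 7.68, 8.32 and 7.44 CPM (-1.68 ± 0.15).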

How the data were processed

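Total RNA libraries (stranded kit) of 48 samples, 3 biological replicates for each of 8 lines and 2 treatments, were deposited by the authors as raw read counts per gene in 1 matrix of 33892 rows. The submitters' processing notes name bcl2fastq 2.19, FastQC, Trimmomatic, HISAT2, DESeq2 and the build hg38. The counting program, its annotation and its use of strand are not given in the sources used here.

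Counts were analysed with edgeR 4.0.16 in R 4.3.3: filterByExpr with a minimum count of 10, TMM scaling, the quasi-likelihood test and Benjamini-Hochberg adjustment over all genes tested, with calls at an adjusted p under 0.05. Each line was fitted on its own 6 libraries. A joint fit of 48 libraries in 16 groups gave the average over lines, the difference between lines, the myeloma contrast and the DMSO levels. The fits were tested on simulated data. Levels compared between genes are FPKM, computed from the counts with GENCODE 29 exon lengths. Alternatives were DESeq2 1.42.0, its size factors, library totals, other filters, a replicate block, summed rows of 1 identifier, left-out libraries and lines, and limma 3.58.1 on the 8 line effects. Library totals ran from 9.12 to 64.4 M counts.

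All 34 members were described. Values in single libraries were given for the 10 members with the largest average change, for the 10 pairs of member and line with the largest change among calls without overlap, for SREBF1, SREBF2 and INSIG1, and for the LXR targets, and means for some others. FDFT1 in DLD-1 was added after its values were seen. Of the 27 further pathway genes, those with the 2 largest average rises and falls were named. Members and lists were chosen with earlier results of these data known.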

Additional observations from a re-analysis of the deposited data

Results flagged for a closer look

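The response to carfilzomib differed between the 8 lines for 33 of 34 members, where 67.7% of all genes tested also differed. The count was 34 with the rows of 1 identifier summed. The test was the joint edgeR fit over the 48 libraries, as an F value of the difference with Benjamini-Hochberg adjustment. The F values are given here by role. Among sterol sensors they were SREBF1 (52.9), INSIG1 (27.5), SREBF2 (24.5) and SCAP (21.5). The mevalonate arm gave FDPS (64.7), HMGCS1 (63.4), IDI1 (62.1), ACAT2 (38.5), PMVK (23.3), MVD (18) and MVK (10.1). In the sterol arm they were SQLE (121), CYP51A1 (97.2), TM7SF2 (89.2), DHCR7 (75.4), EBP (55.5), MSMO1 (44.6), LSS (37.9), NSDHL (20.7), SC5D (20.1), HSD17B7 (13.5) and FDFT1 (2.79), and the transport gene was STARD4 (12.7). Fatty acid genes gave ACLY (156), SCD (102), ELOVL6 (84.1), FADS1 (57.4), FASN (47.1), LPIN1 (36.8) and FADS2 (31.2). The LXR targets gave MYLIP (22.7), ABCG1 (10.6) and ABCA1 (2.75). ACLY, at the top, went from 0.027 in H-23 to -1.39 in RPMI on the log2 scale, and ABCA1, at the bottom, from -0.67 in PANC-1 to 0.45 in DLD-1.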

How the results depend on the processing

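In RKO the count of members called higher was 2, and it became 5 with library totals, 4 with a mean of at least 50 counts and 4 with DESeq2. The count of all genes called higher there was 525 of 14522. It became 807 with library totals, 594 of 11705 with the mean filter and 632 with DESeq2. On average over the lines, library totals gave 2 members higher and 21 lower. The calls among all genes then went from 4417 higher and 5343 lower to 5128 and 4621. Without CAPAN-2, 5 members were higher on average (all genes 4076 of 22013). With the cell lines as the units 0 were higher (all genes 0.49%) and 1 lower (all genes 0.387%). The cause was not tested. Leaving out 1 library at a time, the count of members called higher ranged over 2 to 3 in RKO, 1 to 4 in DLD-1, 4 to 6 in H-23, 9 in H-1299, 2 to 3 in PANC-1, 0 to 1 in CAPAN-2, 6 to 7 in H-929, 4 to 6 in RPMI, and the count called lower over 1 to 2 in RKO, 2 to 7 in DLD-1, 7 to 11 in H-23, 15 to 18 in H-1299, 13 to 14 in PANC-1, 26 to 29 in CAPAN-2, 18 to 21 in H-929, 23 to 25 in RPMI. The lowest RKO count of lower calls came without any 1 of DMSO replicates 2 and 3 and the 3 carfilzomib replicates, and the CAPAN-2 rise without DMSO replicate 3. Without 1 replicate number, 2 to 3 members were higher and 22 to 23 lower on average, 32 to 33 differed between lines, and 4 to 5 were higher and 20 to 22 lower in the myeloma contrast.

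Signs turned in 6 results that passed the threshold with or without the alternative. ABCA1 in RPMI ranged from -0.46 to 0.38 without 1 library, the highest without DMSO replicate 1, and FDFT1 in H-1299 was -0.50 with its rows summed. The average of HMGCS1 was 0.090 (adjusted p = 0.00614) without CAPAN-2 and 0.10 (adjusted p = 0.000382) without H-929. Without H-929 the averages of IDI1 and SC5D were -0.041 (adjusted p = 0.127) and 0.013 (adjusted p = 0.802), and without RPMI that of MYLIP was 0.083 (adjusted p = 0.0297). These p-values are edgeR's, adjusted over all genes. Values that passed under neither setting changed sign too, among them, with summed rows, FDFT1 in H-23 and PANC-1 and ACACA in RKO, PANC-1, H-929 and RPMI.

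The main fits did not pair libraries by replicate number: in 0 of 8 lines did all 3 pairs correlate above 0.1. In H-23 and PANC-1, however, every DMSO library correlated best with the treated library of its own number. With a replicate block, 29 members in CAPAN-2, 21 in H-929 and 24 in RPMI were lower, and 3 were higher in RKO. The DMSO levels hold no treated partner, so their fit with a block was not run. Low counts in their rows limit ABCG1 in RKO and H-1299 and FDFT1 in H-929. With the rows of its identifier summed, FDFT1 was called lower in H-929, at -1.501.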
